A study of Mus musculus with 31 samples.

Results

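The genes of peroxisome biogenesis and of the lipid enzymes that peroxisomes hold were measured in the liver of mice that lack the carbohydrate response element binding protein ChREBP or its β isoform. The 38 genes were taken by name from a list of 13 peroxins, 20 matrix enzymes and 5 proteins of the peroxisomal membrane, among 23968 gene names of the arrays. Each array probe that carried 1 of these names was used, which gave 71 probes, of which 66 of the 36059 probes kept passed the filter on dim spots, with at least 1 probe for each of the 38 genes.

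The 31 mice were C57BL6/J males, with 1 array per liver. They comprised 7 total ChREBP-KO mice, which are Mlxipl-null and lack both isoforms, with 8 WT littermates of that line, and 8 ChREBPβ-deficient mice, made by CRISPR/Cas9 deletion of the β-specific exon 1b, with 8 WT littermates of their own line. Both deletions were carried by every tissue and not by the liver alone. All 4 groups went without food for 24 hours and were then fed again for 18 hours while drinking 20% glucose. Mice came from several litters, and ages were not given in the sources used here.

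Peroxisomes shorten very long, branched and dicarboxylic fatty acids and the side chain of bile acid precursors by β-oxidation, remove hydrogen peroxide with catalase and begin the synthesis of ether lipids. Peroxins import their enzymes from the cytosol, insert their membrane proteins and divide the organelle. In rodent liver, PPARα, a nuclear receptor activated by fatty acids, is known to raise many of the β-oxidation enzymes, whereas ChREBP is known for raising glycolytic and lipogenic genes after glucose.

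The tissue and the genotypes were checked first. The mean log2 signal of 10 hepatocyte genes lay between 16.55 and 17.06 on the 31 arrays. Mlxipl, the gene of ChREBP, had a mean log2 signal of 14.12 ± 0.13 (SD, n = 7) in total ChREBP-KO mice by its brightest probe, against 15.28 ± 0.12 (SD, n = 8) in littermates, and 14.64 ± 0.14 (SD, n = 8) and 15.09 ± 0.17 (SD, n = 8) in ChREBPβ-deficient mice and theirs. The groups of a line did not overlap, and limma's adjusted p was 8.05e-13 and 0.0152. Of its dimmer probes, A_55_P2045158 moved by -0.05 and -0.06. A_55_P2728555 moved by -0.59 and -0.46 (limma's adjusted p = 0.00313 and 0.909), with groups that overlapped in both lines. Whether the probes lie in the deleted parts was not known. The 14 ChREBP target genes listed were all called lower in total ChREBP-KO mice, with a median log2 difference of -3.17, against 17.1% of all genes. That list was chosen with earlier results of these data known, so it is no independent check. RNA of exocrine pancreas stood out in 3 WT mice of the total line, replicates 2, 7 and 8, in which 6 pancreatic genes had a mean log2 signal of 11.26, 9.70 and 9.83 against a group median of 7.98, and 4 of the 6 were called lower in the knockout mice of that line. Adipocyte genes stood out within that line in total ChREBP-KO replicate 6 and in WT replicates 2 and 5, and none of 7 was called. Of the other marker lists, 3 of 10 hepatocyte, 1 of 5 cholangiocyte and 1 of 5 red blood cell genes were called higher. In the lymphocyte list 1 of 4 genes was called lower, and none of the 6 endothelial and 6 Kupffer cell genes was called. Among all genes, 17.3% were called higher and 17.1% lower in total ChREBP-KO mice. Calls of 1 gene in lists of 4 or 5 are near these shares. Arrays were scanned on 2 days, each with mice of all 4 groups.

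In total ChREBP-KO mice, matrix enzymes rose and peroxins moved in both directions by small amounts. Of the 20 matrix enzymes, 12 (60%) were called higher, 1 lower and 7 were not called, where a call is a limma p under 0.05 after Benjamini-Hochberg adjustment over all probes for at least 1 probe of the gene. Of the 13 peroxins, 2 were called higher, 4 lower and 7 were not called. Among all genes, 17.3% were called higher and 17.1% lower. Of all 38 genes, 24 had a positive difference (63.2%), against 51.9% of all genes. When arrays were scaled by their 75th percentile in place of quantiles, 21 of 38 (55.3%) were positive, against 50.3% of all genes with the processed and 56.7% with the median signal. The median log2 difference, total ChREBP-KO minus WT, with the brightest probe of each gene, was 0.19 for matrix enzymes, -0.03 for peroxins and 0.01 for all genes. Matrix enzymes ranged from -0.12 to 1.14 and peroxins from -0.30 to 0.31. Every total ChREBP-KO mouse exceeded every WT littermate for 4 matrix enzymes and 1 peroxin, a pattern seen in 3.3% of all genes. The opposite pattern was seen for none of the 38 and for 4.45% of all genes. In bulk liver RNA, fewer cells of a type and less RNA per cell cannot be told apart. Of the stellate cell markers, 3 of 5 were also called higher in total ChREBP-KO mice, in which the mean log2 signal of the list ran from 10.13 to 10.81 against 9.42 to 10.24 in WT littermates. The part of these cells in the enzyme differences was not tested.

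**Figure D1:**
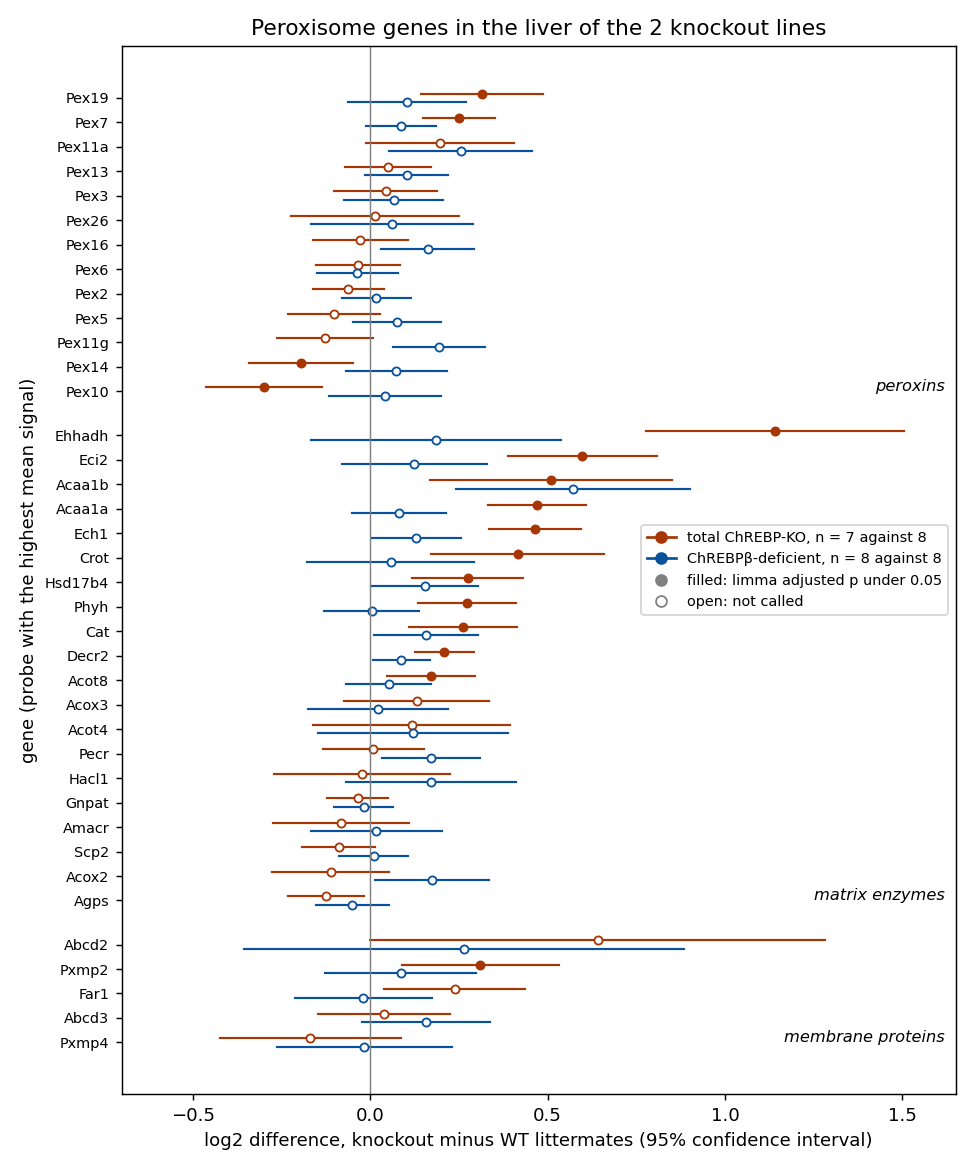
Log2 difference between knockout mice and their WT littermates for the brightest probe of each of the 38 genes, by class, with 95% confidence intervals (brown, total ChREBP-KO; blue, ChREBPβ-deficient). Filled points, which passed the adjusted threshold, are seen only for total ChREBP-KO mice, and 11 of the 14 that lie to the right of 0 are matrix enzymes.

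The largest rise among the 38 genes was that of Ehhadh, which codes for the L-bifunctional enzyme of the hydration and dehydrogenation steps of peroxisomal β-oxidation. Its log2 signal was 13.09 at the lowest, 13.33 at the median and 14.10 at the highest in total ChREBP-KO mice, and 11.89, 12.14 and 13.15 in WT littermates. Of the 7 knockout mice, 5 lay above all WT littermates, of which replicate 6 was the highest. The log2 difference was 1.14 (SE 0.18, 2.20-fold, adjusted p = 1.14e-05 by limma). The D-bifunctional enzyme Hsd17b4, which handles branched chains and bile acid precursors, rose by 0.28 (adjusted p = 0.00667). Only 1 of 7 knockout mice lay above all WT littermates. On the first scan day it ran from 14.91 to 15.03 in knockout and from 14.47 to 14.55 in WT mice. On the second it ran from 14.84 to 15.11 and from 14.79 to 15.07.

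The thiolases end each round of β-oxidation by releasing acetyl-CoA. Acaa1a, a thiolase of straight chains, ran from 15.58 through a median of 15.68 to 15.78 in total ChREBP-KO mice and from 14.92 through 15.28 to 15.39 in WT littermates. The groups did not overlap, and the log2 difference was 0.47 (SE 0.07, adjusted p = 2.88e-06). A second Acaa1a probe gave 0.50 (adjusted p = 0.00123), with 6 of 7 knockout mice above all WT littermates. Acaa1b, a near-identical copy of Acaa1a, rose by 0.51 (SE 0.17, adjusted p = 0.0207), with 5 of 7 knockout mice above all WT littermates. It missed the threshold without the mice with pancreatic or with adipocyte RNA (adjusted p = 0.0671 and 0.0984), and the part of that RNA was not tested. How far the probes of the copies read each other was not tested. The third thiolase gene, Scp2, which also codes for a sterol carrier protein, differed by -0.09 (adjusted p = 0.192).

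Auxiliary enzymes prepare unsaturated chains for β-oxidation by moving or reducing their double bonds. Eci2, an enoyl-CoA isomerase, had log2 signals of 14.27, 14.62 and 14.75 at the lowest, median and highest in total ChREBP-KO mice, and of 13.68, 14.00 and 14.16 in WT littermates. The groups did not overlap by this probe, and both Eci2 probes gave 0.60 (adjusted p = 4.6e-05 and 3.18e-04). By the second, A_55_P2491848, 6 of 7 knockout mice lay above all WT littermates. Ech1, a dienoyl-CoA isomerase, ran from 15.00 through 15.06 to 15.27 against 14.36 through 14.68 to 14.87, again without overlap, with a log2 difference of 0.46 (SE 0.06, adjusted p = 1.44e-06). Decr2, the peroxisomal dienoyl-CoA reductase, rose by only 0.21 (SE 0.04, adjusted p = 1.83e-04), but its mice were spread so little that the groups did not overlap. Pecr, a trans-enoyl-CoA reductase, depended on the probe, with 0.35 for A_55_P2113723 (adjusted p = 0.0376) and 0.01 for its brightest probe (adjusted p = 0.946). By the first probe, 2 of 7 knockout mice lay above all WT littermates, whose levels ran from 9.89 to 10.92 against 10.63 to 11.02. The racemase Amacr, which turns branched chains into the form that can be oxidised, differed by -0.08 (adjusted p = 0.554).

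**Figure D2:**
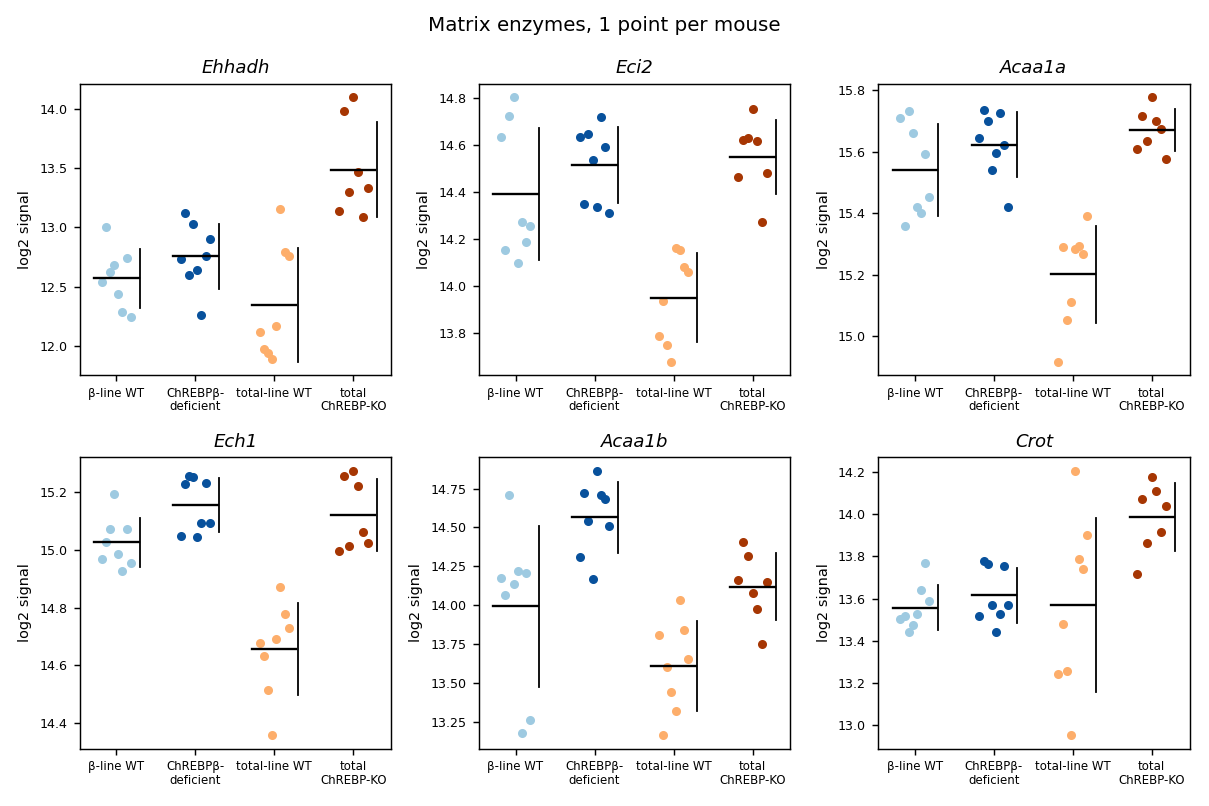
Log2 signal of 6 matrix enzymes in each mouse of the 4 groups, with the mean (horizontal bar) and SD (vertical bar); scales differ between panels. Total ChREBP-KO mice lie above all WT littermates of their line for Eci2, Acaa1a and Ech1, while these WT littermates have the lowest mean of the 4 groups for each plotted enzyme but Crot.

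Of the enzymes with the clearest rises, 3 had a probe whose letters span an intron in the genome, so that it reads spliced mRNA. These 60-base probe sequences are shown because the Ech1 result rests on the first and the Acaa1a and Eci2 results were repeated by the others, with the positions of their ends in mouse build mm9 at chr7:29616863-29617058, chr9:119255643-119256863 and chr13:35078026-35079366, the last on the minus strand.
Ech1: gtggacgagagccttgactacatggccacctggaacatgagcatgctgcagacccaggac
Acaa1a: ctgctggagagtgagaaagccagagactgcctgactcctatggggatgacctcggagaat
Eci2: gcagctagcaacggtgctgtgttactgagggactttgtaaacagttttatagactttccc
The 3 probes differed between total ChREBP-KO and WT mice by 0.46, 0.50 and 0.60 on the log2 scale.

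Of the 3 enzymes that prepare chain-shortened products to leave the peroxisome, 2 were called higher, against 17.3% of all genes. Crot, a carnitine transferase for medium chains, rose by 0.42 (adjusted p = 0.0085), but WT levels were wide, from 12.95 through a median of 13.61 to 14.21 against 13.72 through 14.04 to 14.18, and 1 WT mouse lay above all knockout mice. WT levels were 12.95 to 13.48 on the first scan day and 13.74 to 14.21 on the second. Knockout levels were 13.72 to 14.18 and 13.92 to 14.11. The second Crot probe gave 0.45 with a wider error (SE 0.25, adjusted p = 0.184). The thioesterase Acot8 rose by 0.17 (adjusted p = 0.0322), but it gave -0.0074 within the second scan day and lost its call in 14 more of 47 alternatives, whereas the thioesterase Acot4 differed by 0.12 (adjusted p = 0.569).

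Outside β-oxidation, Phyh, the first enzyme of α-oxidation of phytanic acid, rose by 0.27 and 0.34 with its probes (adjusted p = 0.00256 and 1.92e-04), and catalase (Cat) rose by 0.26 (adjusted p = 0.00816). All 7 knockout mice lay above the WT median for both genes. The groups were apart on the first scan day only. On the second, the brightest Phyh probe ran from 16.83 to 17.00 in knockout and from 16.74 to 17.03 in WT mice. Cat ran there from 16.06 to 16.26 and from 16.02 to 16.25. Hacl1, the lyase that follows Phyh, differed by -0.02 (adjusted p = 0.915). Neither matrix enzyme that begins ether lipid synthesis was called higher. Agps fell by 0.17 with A_55_P2050088 (adjusted p = 0.0137) and had -0.12 with its brighter probe (adjusted p = 0.0726), and Gnpat gave -0.03 (adjusted p = 0.587). The called Agps probe was dim, with medians of 5.68 in knockout and 5.81 in WT mice, though above background on all 31 arrays. Its difference ran from -0.26 to -0.10 over 47 alternatives, 4 of which lost the call. The dimmer Gnpat probes, A_66_P102711 and A_55_P2742116, had medians of 9.41 and 8.48 in knockout mice and 9.41 and 8.37 in WT littermates. By these probes, 3 and 4 of 7 knockout mice lay above all WT littermates, and neither was called. The acyl-CoA oxidases of the list were not called either, with -0.11 for Acox2, the oxidase of bile acid precursors, and 0.13 for Acox3, the oxidase of branched chains (adjusted p = 0.332 and 0.356).

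Promoter sequences are shown for Ehhadh, Acaa1a, Eci2 and Ech1, which carry the results above, because these genes moved together. They are the 250 bases before the transcription start from RefSeq, in the GRCm38.p6 build, written 5′ to 3′ on the strand of the gene. Capitals mark CCAAT and GGGCGG on either strand, where ATTGG and CCGCCC are their reverse complements. The positions are chr16:21787835-21788084 on the minus strand for Ehhadh, chr9:119341044-119341293 for Acaa1a, chr13:34994145-34994394 on the minus strand for Eci2, and chr7:28825088-28825337 for Ech1.
Ehhadh: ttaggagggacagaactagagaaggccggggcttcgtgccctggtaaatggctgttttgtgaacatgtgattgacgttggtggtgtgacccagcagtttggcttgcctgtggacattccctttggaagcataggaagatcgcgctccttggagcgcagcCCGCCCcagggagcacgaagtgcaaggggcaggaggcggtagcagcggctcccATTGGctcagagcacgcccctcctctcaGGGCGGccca
Acaa1a: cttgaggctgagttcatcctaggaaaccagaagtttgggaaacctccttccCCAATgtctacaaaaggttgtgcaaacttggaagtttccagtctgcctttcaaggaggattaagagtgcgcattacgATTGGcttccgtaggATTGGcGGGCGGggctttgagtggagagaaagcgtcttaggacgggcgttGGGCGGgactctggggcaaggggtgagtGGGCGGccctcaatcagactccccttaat
Eci2: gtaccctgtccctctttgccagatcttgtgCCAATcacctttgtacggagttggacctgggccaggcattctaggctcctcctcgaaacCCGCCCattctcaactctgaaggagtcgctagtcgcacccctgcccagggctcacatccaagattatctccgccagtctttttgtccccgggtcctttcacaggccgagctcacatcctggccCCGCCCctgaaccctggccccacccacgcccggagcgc
Ech1: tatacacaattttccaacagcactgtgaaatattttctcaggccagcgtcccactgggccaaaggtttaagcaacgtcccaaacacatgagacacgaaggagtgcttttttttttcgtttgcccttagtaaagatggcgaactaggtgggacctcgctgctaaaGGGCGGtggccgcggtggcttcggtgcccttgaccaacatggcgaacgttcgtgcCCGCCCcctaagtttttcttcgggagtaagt
Such a sequence was found for 32 of the 38 genes. A gene was counted once when any of its sequences held the motif, so that shares of all promoters are shares of 27025 genes. CCAAT was in 12 of 18 matrix enzyme promoters (66.7%), in 3 of 11 peroxin promoters (27.3%) and in 37.5% of all promoters of that length, and was absent from the Ech1 window. GGGCGG was in 14 of 18 (77.8%), 7 of 11 (63.6%) and 35.4%. CACGTG, the palindrome found in the recognition element of ChREBP, was in the windows of Acot4 and Gnpat and in 6.86% of all promoters. A spaced repeat of the kind that PPARα binds with its partner RXR was searched on both strands as NGGNCA and AGGNCA, 1 base apart. It was found for 3 of the 32 genes and for 0.81% of all genes. Its strict form, AGGTCA repeated with 1 base between the copies, also fits the looser search and was in none of the 32 and in 0.0407% of all. The 3 matches, in capitals, were at chr12:84038358-84038378 for Acot4, and on the minus strand at chr14:8259056-8259084 for Acox2 and chr8:3467704-3467732 for Pex11g.
Acot4: ccgaagcaTGACCTTTGGCCG
Acox2: acaccaccTGGACACAGGACAcacccctc
Pex11g: gcagtactCGGACAAAGGGCAggcagttg
None of these 3 genes was called higher in total ChREBP-KO mice, and Pex11g was called lower with 1 of its 4 probes. Sequence beyond the 250 bases was not searched, and binding by PPARα was not tested. TGACCT is 1 arm of the repeat read on the other strand and overlaps it in some windows. It was found for 4 of the 32 genes, Pex11g, Scp2, Acot4 and Cat, and for 15.8% of all genes.

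Peroxins had calls in both directions. Among the receptors that carry matrix enzymes, Pex7, which binds the signal of thiolase and Phyh, had log2 signals of 12.36, 12.48 and 12.57 at the lowest, median and highest in total ChREBP-KO mice and 12.07, 12.24 and 12.32 in WT littermates. The groups did not overlap, with a log2 difference of 0.25 (SE 0.05, adjusted p = 2.56e-04). Pex5, the receptor for most other matrix enzymes, gave -0.10 (adjusted p = 0.242). Of the docking proteins that receive them, Pex14 fell by 0.19 (adjusted p = 0.0406), a call lost in 16 of 47 alternative settings, and Pex13 gave 0.05 (adjusted p = 0.581).

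The ubiquitin ligase and the export machinery recycle the receptors. Pex10, a RING ligase, was dim, from 6.91 through 7.15 to 7.34 in total ChREBP-KO mice and from 7.15 through 7.48 to 7.59 in WT littermates, and all 7 knockout mice lay below the WT median with 4 below all WT littermates. Its log2 signal fell by 0.30 (SE 0.08, adjusted p = 0.0048), and by 0.28 and 0.33 within the scan days, where it missed the threshold, as it did with slide as a fixed block. The RING ligase Pex2 gave -0.06 (adjusted p = 0.383). Pex26, the anchor of the export ATPases, fell by 0.27 with A_66_P128662 (adjusted p = 0.0064) and had 0.01 with its brighter probe (adjusted p = 0.946), and Pex6, 1 of these ATPases, gave -0.03 (adjusted p = 0.706). By the first Pex26 probe, the levels ran from 6.89 through 7.31 to 7.52 in knockout mice and from 7.30 through 7.56 to 7.65 in WT littermates, so that they overlapped.

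Membrane proteins are inserted with Pex19, their carrier, and with Pex3 and Pex16. Pex19 rose by 0.31 and 0.27 with its probes (adjusted p = 0.00497 and 0.0465). By its brighter probe, 6 of 7 knockout mice lay above all WT littermates, whose highest was 11.92, while knockout replicate 7 was at 11.61. Pex3 and Pex16 gave 0.04 and -0.03 (adjusted p = 0.699 and 0.8). Of the division factors, Pex11a, a known PPARα target, gave 0.20 (adjusted p = 0.157). Pex11g fell by 0.21 with 1 of its 4 probes, A_52_P375939 (adjusted p = 0.0211), and gave -0.13 with the brightest (adjusted p = 0.155).

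**Figure D3:**
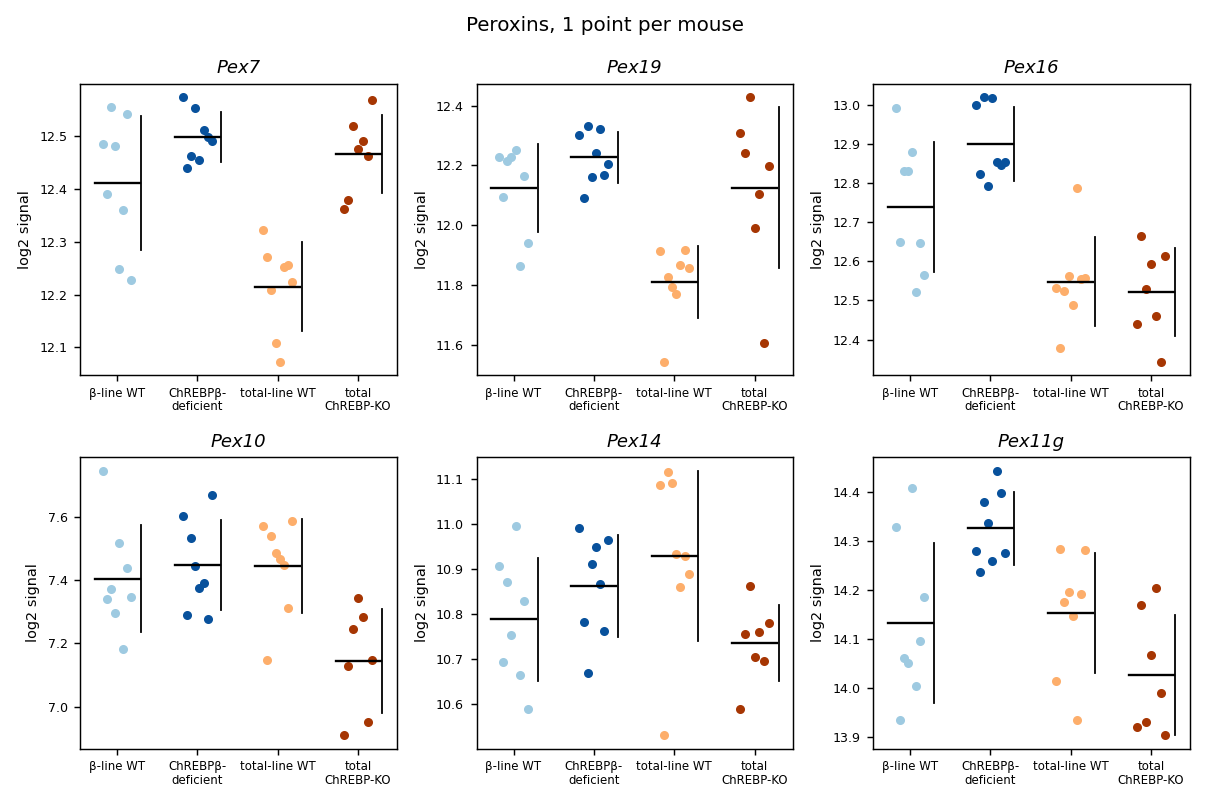
Log2 signal of 6 peroxins in each mouse of the 4 groups, with the mean (horizontal bar) and SD (vertical bar); scales differ between panels. Pex7 is above all WT littermates in each total ChREBP-KO mouse, Pex10 is below the WT median in each, and 1 total ChREBP-KO mouse is low for Pex19.

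Of the 5 membrane proteins, 2 were called higher and none lower in total ChREBP-KO mice, against 17.3% and 17.1% of all genes. Pxmp2, a channel for small metabolites, rose by 0.31 (adjusted p = 0.0299). The other call, of Far1, which makes the fatty alcohols of ether lipids, rests on 1 of 3 probes (adjusted p = 0.027), which was well above background on only 19 of the 31 arrays. Its difference of 0.23 ran from 0.09 to 0.97 over the alternatives and is no measure of size. The brighter Far1 probes, above background on all arrays, gave 0.24 and 0.14 and were not called (adjusted p = 0.0671 and 0.0998). The fatty acyl-CoA transporters were not called. Abcd3 gave 0.04 (adjusted p = 0.799), and Abcd2 gave 0.64 (SE 0.31, adjusted p = 0.131), from 6.13 through a median of 6.32 to 8.30 in total ChREBP-KO mice and from 4.76 through 6.13 to 7.30 in WT littermates.

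The rise of the matrix enzymes was also read within each scan day, where its size varied. With 4 total ChREBP-KO and 4 WT mice scanned on the first day, 14 of the 38 genes were called higher, against 9.5% of all genes, and the matrix enzyme median was 0.29. With 3 and 4 mice on the second day, 5 were called higher, against 7.28% of all genes, and the median was 0.09. Ehhadh ran from 13.14 to 14.10 in total ChREBP-KO and from 11.89 to 12.12 in WT mice on the first day, and from 13.09 to 13.47 and 12.17 to 13.15 on the second. It differed by 1.66 on the first day (adjusted p = 1.23e-04) and by 0.58 on the second (adjusted p = 0.0656). Acaa1a differed by 0.59 and 0.34 and Ech1 by 0.59 and 0.33, and these passed the threshold on both days (adjusted p from 5.57e-04 to 0.0146). The difference between days, a test chosen after seeing the data, was called for 0 of the 66 probes by limma (smallest adjusted p = 0.307) and for 0.00277% of all probes. Its unadjusted p was under 0.05 for 16 of the 66 (24.2%), against 7.71% of all probes.

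It was the WT littermates whose matrix enzymes stood apart by scan day. The mean deviation of the 20 matrix enzymes from their overall means was -0.34 to -0.24 on the log2 scale in the 4 WT mice scanned on the first day and -0.10 to 0.04 in the 4 scanned on the second, with no overlap. In total ChREBP-KO mice it was -0.06 to 0.18 and -0.02 to 0.10. Within these WT mice, 17 of 20 matrix enzymes were lower on the first day, with a median of -0.21, against 7 of 13 peroxins with a median of -0.02. Of the 66 probes, 5 were called between the days, for Crot, Amacr, Phyh, Pecr and Hsd17b4 (adjusted p from 0.0041 to 0.0275), among 0.799% of all probes. The first day held replicates 1 to 4 and the second replicates 5 to 8, so that scan day and whatever else set these mice apart cannot be told apart.

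**Figure D4:**
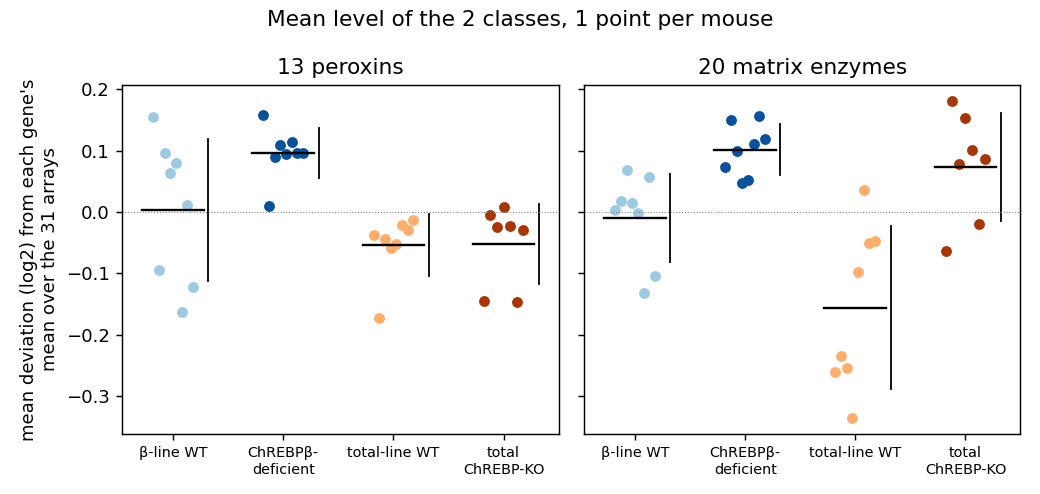
Mean deviation, on the log2 scale, of the 13 peroxins and the 20 matrix enzymes from each gene's mean over the 31 arrays, with 1 point per mouse, the group mean (horizontal bar) and SD (vertical bar). The WT littermates of the total line span -0.34 to 0.04 for matrix enzymes and lie mostly below the other groups, while both groups of that line overlap for peroxins.

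In ChREBPβ-deficient mice, none of the 38 genes was called by limma (smallest adjusted p = 0.8), where 0.00417% of all genes, Mlxipl alone, were called. At an unadjusted p under 0.05, the brightest probe of 10 genes was higher and of none lower, against 2.44% and 2.62% of all genes. The differences were small and leaned upward, being positive for 18 of 20 matrix enzymes and 12 of 13 peroxins against 48.2% of all genes, with medians of 0.10 and 0.08. With the 75th percentile scaling, 15 of 20 matrix enzymes were positive and their median was 0.036 or 0.042. The intervals bound the differences for the enzymes that had risen in the other line. Ehhadh had a lowest log2 signal of 12.26 and a median of 12.75 in ChREBPβ-deficient mice, against 12.24 and 12.58 in WT littermates, and the groups overlapped. It gave 0.19 (95% confidence interval -0.17 to 0.54), Eci2 0.12 (-0.08 to 0.33), Acaa1a 0.08 (-0.05 to 0.21) and Ech1 0.13 (0.01 to 0.26).

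The enzyme with the largest difference in this line was Acaa1b, at 0.57 (unadjusted p = 0.00134). Its log2 signal ran from 14.17 through a median of 14.61 to 14.87 in ChREBPβ-deficient mice and from 13.18 through 14.16 to 14.71 in WT littermates. The WT littermates with the lowest Acaa1b, replicates 6 and 8, were also the lowest in the mean of the matrix enzymes, at -0.13 and -0.10. Pex11a, the proliferation factor, gave 0.25 and Pex11g 0.19 in the same comparison (unadjusted p = 0.0147 and 0.00491), each with 95% confidence intervals above 0. None of the 3 was called after adjustment. ChREBPβ-deficient and WT medians on the first scan day were 14.54 and 14.18 for Acaa1b, 14.04 and 14.06 for Pex11a, and 14.34 and 14.06 for Pex11g. On the second they were 14.68 and 13.72, 14.36 and 14.01, and 14.28 and 14.14.

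Whether the lines differed in response was tested by subtracting the ChREBPβ-deficient change from the total ChREBP-KO change. Of the 38 genes, 6 were called higher and 2 lower, against 8.82% and 9.6% of all genes. Of the matrix enzymes, 5 of 20 were called higher and none lower. Ehhadh gave 0.95 (adjusted p = 0.00772), Eci2 0.47 and 0.54 with its probes (adjusted p = 0.0226 and 0.0281), and Acaa1a 0.39 (adjusted p = 0.00418), with its second probe at 0.14 (adjusted p = 0.626). Ech1 gave 0.33 (adjusted p = 0.00895) and Phyh 0.32 with 1 of its probes (adjusted p = 0.0174). The peroxins with a call were Pex10 and Pex11g, at -0.34 and -0.32 (adjusted p = 0.0338 and 0.0155). The call of Far1 (adjusted p = 0.0445) rests on its dim probe, whose difference of 0.32 ran from 0.099 to 0.996 over the alternatives and lost the call in 31 of 45. Pex10 lost its call in 12 of 46 alternatives, including the fit that blocks on slide (adjusted p = 0.182), and Pex11g in 4, with the replicate block (adjusted p = 0.0517) and without the mice with pancreatic RNA (adjusted p = 0.0739) among them. Phyh lost its call in 3, when blocked on slide (adjusted p = 0.0566) and within each scan day. For Acaa1b, at 0.51 and 0.57 in the lines, the difference was -0.06 with a 95% confidence interval of -0.53 to 0.41. Within single scan days, 3 and 0 of the 38 genes were called, against 5.34% and 6.88% of all genes. Ehhadh gave 1.42 on the first day and 0.37 on the second (adjusted p = 0.0159 and 0.502), and the brightest Eci2 probe 0.77 and 0.16 (adjusted p = 0.0615 and 0.671), so that the pooled values of Ehhadh and Eci2 rest largely on the first day. By the probes called above, Acaa1a gave 0.48 and 0.28, Ech1 0.41 and 0.21, and Phyh 0.36 and 0.25. Pex10 gave -0.32 and -0.36 and Pex11g -0.35 and -0.29. None of these probes passed the threshold within either day.

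The WT littermates of the lines were not alike. Those of the total line were lower than those of the β line for 12 of the 38 genes and higher for 2, against 11.4% and 9.93% of all genes. This comparison shares its mice with those above, so the values stand beside them and add no separate evidence. Eci2 gave -0.44 and -0.49 with its probes (adjusted p = 0.00258 and 0.00431), Ech1 -0.37 (adjusted p = 9.92e-05), Acaa1a -0.34 (adjusted p = 4.73e-04) and Decr2 -0.16 (adjusted p = 0.00513). Pecr, which had differed little within its line by the brightest probe, gave -0.31 and -0.81 (adjusted p = 0.00174 and 3.78e-05). The peroxins called lower were Pex7 (-0.20), Pex19 (-0.31), Pex16 (-0.19) and, with 1 probe, Pex11g (-0.38). Lower also were Phyh, and with some of their probes Acox3 and Gnpat, and higher were Acox2 and Agps with 1 probe each, the dim one for Agps. These differences were larger among mice scanned on the first day than on the second, with -0.66 and -0.22 for Eci2, -0.52 and -0.21 for Ech1, -0.33 and -0.04 for Phyh, and -0.48 and -0.14 for Pecr by their brightest probes. The brightest Phyh probe lost its call in 23 of 47 alternatives. Line, housing and litter cannot be told apart here.

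Set against the WT littermates of the β line, total ChREBP-KO mice had a median log2 difference of 0.13 over the 11 matrix enzymes called higher by their brightest probe, and the WT littermates of the total line had -0.19. The latter group had the lowest mean of the 4 groups for 10 of the 11. Total ChREBP-KO mice had the highest mean for 6, and ChREBPβ-deficient mice for 5. Ehhadh and Crot stood apart, since total ChREBP-KO mice exceeded the WT littermates of the β line by 0.92 and 0.43.

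**Figure D5:**
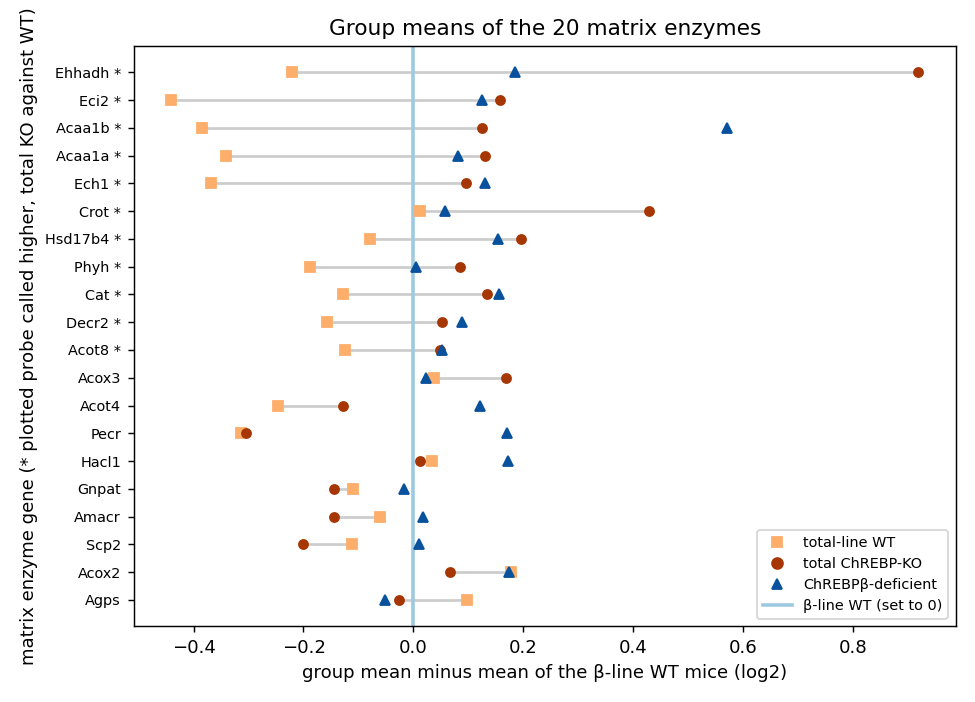
Group means of the 20 matrix enzymes on the log2 scale, each minus the mean of the WT littermates of the β line (vertical line at 0). For most genes called higher in total ChREBP-KO mice the WT littermates of the same line lie left of 0 and the knockout mice close to its right, and for Ehhadh and Crot the knockout mice lie far to the right.

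Peroxisomal genes beyond the 38 were also read in total ChREBP-KO mice. Of 41 measured, 18 were called higher and 8 lower, against 17.3% and 17.1% of all genes, with a median log2 difference of 0.10, and none was called in ChREBPβ-deficient mice. The importers and activators Slc27a2 and Acsl1 rose by 0.40 and 0.63 (adjusted p = 5.93e-04 and 2.7e-05), and the thioesterases Acot12 and Acot5 by 0.50 and 0.75 (adjusted p = 1.28e-06 and 9.19e-05). Agxt, which detoxifies glyoxylate, rose by 0.72 (adjusted p = 0.00174). Ddo, the D-aspartate oxidase, fell by 1.34 (adjusted p = 3.12e-08). Uox, the urate oxidase, and Idh1, a source of NADPH, fell by 0.37 and 0.32 (adjusted p = 0.00258 and 1.09e-04).

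Ppara itself rose by 0.69 in total ChREBP-KO mice (adjusted p = 8.09e-04), without overlap between groups, and was at -0.01 in ChREBPβ-deficient mice (adjusted p = 1). Of 9 listed genes of the PPAR family and its partners, Ppara included, 4 were called higher and 2 lower, again against 17.3% and 17.1% of all genes. Of 20 PPARα target genes outside peroxisomes, 13 (65%) were called higher and 2 (10%) lower, against the same shares, with a median of 0.51. They included the microsomal ω-hydroxylase Cyp4a10 (1.17), the cytosolic thioesterase Acot1 (1.43) and the fatty acid transporter Cd36 (0.95). Plin2, which coats lipid droplets, was among the lower genes, at -0.60. Between the WT littermates of the lines, 10 of these 20 genes were lower in the total line and 1 was higher, with Ppara at -0.69 (adjusted p = 0.00142).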

How the data were processed

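Liver RNA of 31 mice was hybridised to one-colour Agilent mouse arrays, 1 per mouse. The authors deposited Feature Extraction 10.10.1.1 scanner files, with the intensity of each spot and its quality flags, and a series table with log2 values. Their methods describe median pixel intensities, spot weights, a filter, quantile normalization and medians over spots that share a probe name. Probe positions are in mm9, and gene names come from the scanner files.

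The deposited median intensities were put on a log2 scale and the authors' filter was repeated (at least 26 arrays, or at least 6 of 1 group), followed by quantile normalization and the median per probe name. Differences from the deposited log2 values, without the extreme percentile at each end, lay between -0.03 and 0.03. Correlations between arrays were 0.980 to 0.999. Of the 66 probes, 64 were well above background on all arrays and none was saturated. The number of mice limits the precision.

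The 4 groups, from the sample labels, were fitted together with limma 3.58.1 in R 4.3.3 (data.table, version 1.17.8, read the files), with Benjamini-Hochberg adjustment over 36059 probes and a threshold of 0.05. The comparisons were each knockout with its WT littermates, the difference of these changes, and the WT littermates of the total line minus those of the β line. Probes were tested singly, and where a gene has 1 value, it comes from its brightest probe (by mean over all arrays). Classes are described by counts and medians and not tested. All 38 genes could be named, and of the other lists those called and the first 3 of each. The members and lists (other peroxisomal genes, PPARα and partners, PPARα targets, ChREBP targets and markers of 9 cell types) were chosen with earlier results of these data known. Promoters were those of RefSeq. Scripts were tested on simulated data. Figures used matplotlib 3.10.9.

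Alternatives were other signals, scalings and filters, slide or scan day as a block, single scan days, a replicate block, separate fits, 1 probe per gene, a fold of at least 1.5 and each mouse left out. Leaving out mice with pancreatic or adipocyte RNA, and the test between scan days, were added after seeing the data. Total ChREBP-KO replicate 3 was not analysed here, and some genes of the lists are not reported here.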

Additional observations from a re-analysis of the deposited data

Results flagged for a closer look

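In 10 of 152 sets of 1 gene and group, 1 mouse stood apart from the rest of its group in Dixon's test (95% critical value), and chance marks about 1 in 20 sets. WT replicate 2 of the total line, the mouse with the most pancreatic RNA, accounted for 4 of them. It was low for Pex14 (10.53), Pex3 (10.21) and Pex19 (11.54) and high for Far1 (7.24) on the log2 scale. The other mice of the total line were WT replicate 6, high for Pex16 (12.79), and WT replicate 3, high for Gnpat (11.79). In the β line, ChREBPβ-deficient replicate 8 was low for Pex5 (12.25), replicate 1 was high for Pex3 (10.83) and replicate 2 was high for Abcd2 (7.77), and WT replicate 1 was low for Decr2 (15.96).

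The change in total ChREBP-KO mice differed from that in ChREBPβ-deficient mice by limma's test of the difference for 8 genes. The differences were 0.95 for Ehhadh, 0.54 and 0.47 for the Eci2 probes, 0.39 for Acaa1a, 0.33 for Ech1, 0.32 for Phyh, 0.32 for Far1, -0.32 for Pex11g and -0.34 for Pex10. The call was lost in 31 of 45 alternatives for Far1, and in 12, 4 and 3 of 46 for Pex10, Pex11g and Phyh.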

How the results depend on the processing

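Of the calls in total ChREBP-KO mice, those of the brightest Acaa1a probe and of Ech1 passed in all 47 alternatives that refitted the data. Neither reached the fold of at least 1.5, and the setting with 1 probe per gene keeps the fit as it is. Ehhadh stayed between 0.58 and 1.66 and missed the threshold only within scan day 2. Within scan day 1 alone, 0 genes were called lower, 3 differed between lines, and the medians were 0.29 for matrix enzymes in total ChREBP-KO and 0.0324 for peroxins in ChREBPβ-deficient mice. Within scan day 2 alone, 5 genes were higher and 2 lower, 0 differed between lines, 3 differed between WT littermates, and these medians were 0.0881 and 0.165. There, Pex19 by A_51_P427177 (-0.0132), Pecr by A_55_P2113723 (-0.0526) and Acot8 (-0.0074) changed sign. With slide as a fixed block, 2 genes were lower and 6 differed between WT littermates. With 1 probe per gene these counts were 2 and 9. With a fold of at least 1.5, 2 genes were higher, 0 lower, 1 differed between lines and 1 between WT littermates. Without the mice with pancreatic RNA, 3 were lower. With 75th percentile scaling of processed or median signals, the matrix enzyme median in ChREBPβ-deficient mice was 0.036 or 0.042. The causes were not tested.

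Leaving out 1 mouse at a time gave 12 to 16 genes higher and 3 to 5 lower (3 without total ChREBP-KO replicate 1), 0 to 0 called in ChREBPβ-deficient mice, 6 to 9 between lines and 12 to 18 between WT littermates. The total ChREBP-KO medians were -0.05 to 0.01 for peroxins and 0.17 to 0.22 for matrix enzymes, and the ChREBPβ-deficient medians 0.05 to 0.10 and 0.08 to 0.11. In these 31 fits, Pex14 lost its call in 10, the second Pex19 probe in 16, Pecr in 7 and Acot8 in 7. Pxmp2 lost it in 6 and Far1 in 5. Over all alternatives, 47 for each but 46 for Far1, these calls were lost with the sign kept in 16, 24, 13, 14, 10 and 8.

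The main fit did not treat replicate numbers as pairs. Mice of the total line with the same number correlated in their deviations from the group means at -0.23 to 0.20 (2 of 7 pairs over 0.1). In the β line the range was -0.11 to 0.55, with 6 of 8 pairs over 0.1, short of every pair. There, 3 of 8 correlated best with their own number, so that these values do not settle whether that line was paired. With a replicate block, 13 genes were called higher and 4 lower, 0 in ChREBPβ-deficient mice, 7 between lines and 16 between WT littermates, and between lines Pex11g and Far1 lost their call. Of the depth limits, 1 Far1 probe was well above background on 19 of 31 arrays.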
